A study of Mus musculus with 12 samples.

Results

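Nuclear RNA of hippocampal neurons was compared between libraries titled Reactivated and libraries titled Late. By titles and protocol this is the step at which mice met a conditioned cue again. The comparison used 6 of the 12 libraries of the series, 3 per title, and tested 15668 genes of 24015 rows. A gene was tested where 3 or more of the 12 libraries held a count of 10 or higher. All genes that met this filter were tested. All mice carried ArcCreERT2 and R26R-STOP-floxed-eYFP, with the genotype given as +/+, and no age is given. In these mice the Arc promoter drives a tamoxifen-dependent Cre recombinase, so that cells in which Arc is active while the drug is present keep a yellow fluorescent mark. Contextual fear conditioning followed 4-hydroxytamoxifen by 1 h, and the mice were kept dark for 24 h beforehand and for 48 h afterwards. One collection followed conditioning by 1.5 to 2 h and the other fell on day 5, when some of the mice had been put back into the tone and context. The sort used antibodies against NeuN, Arc and GFP on nuclei fixed with 1% paraformaldehyde, 10000 of them per condition, from hippocampi of 10 to 12 pooled mice. A replicate is therefore a pool of mice, and p-values rest on the spread between pools of a title, estimated over all 12 libraries. The treatment label reads the same for all 12 libraries, with a foot shock, no recall and collection on day 0, so the titles are the only source of the groups. Which sorting gate belongs to which title is not stated, and the part of the sort in the differences was not tested. The recall step, and a change at recall, therefore mean Reactivated against Late by title. Basal and Early, the other 2 titles with 3 libraries each, serve here as levels beside the recall step.

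Neurons that fire strongly switch on immediate early genes within minutes. Arc, Fos, the Egr family and Nr4a1 are among these, and their products act at synapses or on later genes. Neurons that were active during learning can be active again when the cue returns, and such cells are called engram cells. RNA taken from nuclei holds many unspliced and non-polyadenylated transcripts, so its levels lie closer to transcription than those of whole cells.

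Total counts were 7356465 to 11120255 in the 6 libraries. Rn45s, the ribosomal RNA precursor, took 33.4% ± 4.76 of the counts of a Late library and 22.4% ± 4.69 of a Reactivated one (SD over 3, exact two-sided permutation p = 0.1, the smallest that 3 against 3 allow). Its share was 7.36% in Basal and 8.51% in Early. Late replicates correlated across genes with r from 0.979 to 0.981 and Reactivated replicates with r from 0.917 to 0.955, so the Reactivated libraries differed more among themselves. A normalized count here is a count divided by the effective size of its library, and a gene rose or fell only where its adjusted p was under 0.05 (edgeR quasi-likelihood test, Benjamini-Hochberg over all genes tested). Values after ± are SE for log2 fold changes.

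Many genes differed between Reactivated and Late, in both directions. In Reactivated against Late, 1615 genes rose (10.3% of those tested) and 1926 fell (12.3%), together 22.6%. The counts of list members given below are to be read beside these shares. At least 2-fold changes made up 792 of the rises and 1186 of the falls. The 3 libraries of each title did not overlap for 6218 genes (39.7%). The direction of the balance depended on scaling. Of the called genes 45.6% were higher, but 58.7% with upper quartile scaling (2260 higher, 1590 lower), 78.1% with libraries set to the same total (3881 and 1091) and 66.8% with that scaling after structural RNAs were removed (2823 and 1402). The median log2 fold change of all genes was 0.0263 in the comparison reported, and 0.146, 0.383 and 0.229 under those 3 settings. Fewer genes passed without Late 1 (815 rose and 1342 fell) and without Late 2 (829 rose and 1379 fell). With the Rn45s share as a covariate 763 rose and 1096 fell, and with the counts left unscaled 877 rose and 869 fell. No called gene took the opposite call under any of these.

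For most called genes all 3 Late libraries lay beyond the Basal and Early levels, on the side away from Reactivated. The 3 libraries of each title were set against the range of the 6 Basal and Early libraries. Of the genes that fell, all 3 Late libraries lay above that range for 1401 (72.7%) without all 3 Reactivated libraries below it. The reverse held for 252 (13.1%), both conditions for 97 and neither for 176. Of the genes that rose, Late alone lay outside for 857 (53.1%), Reactivated alone for 351 (21.7%), both for 50 and neither for 357. These counts are descriptions with no test.

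Some immediate early genes rose at recall and some fell, although with libraries set to the same total 10 rose and 0 fell. Of 24 tested, 4 rose, 2 fell and 18 did not pass, with a median log2 fold change of 0.38, beside the 10.3% and 12.3% of all genes. Jun, which encodes a subunit of the transcription factor AP-1, was at 157, 143 and 174 normalized counts in Late and at 409, 371 and 306 in Reactivated (log2 fold change 1.19 ± 0.16, adjusted p = 8.6e-05). Egr1, a zinc finger transcription factor, was at 142, 133 and 165 in Late and at 278, 383 and 319 in Reactivated (1.15 ± 0.19, adjusted p = 0.00046). Egr3 and Egr4, of the same family, rose by 0.76 and 1.07. The 3 Reactivated libraries lay above the 3 Late libraries for each of these 4 genes. Without Late 2 or Late 3 the call of Egr4 ended (adjusted p = 0.0556 and 0.0700).

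Arc itself, the gene whose promoter marks the cells and whose protein is an antigen of the sort, was high at both titles. It was at 602, 635 and 541 in Late and at 500, 713 and 766 in Reactivated, and its change of 0.16 ± 0.22 did not pass (adjusted p = 0.65). In Basal it was at 150, 102 and 183. The nuclear receptor gene Nr4a1 was at 349, 378 and 404 in Late and at 335, 431 and 575 in Reactivated, and the transcription factor gene Npas4 at 186, 149 and 164 and at 151, 195 and 174. Neither passed (adjusted p = 0.36 and 0.84), and the libraries of the 2 titles overlapped. Fos was low, at 26.4, 17.2 and 18.7 in Late and at 15.1, 51.9 and 24.9 in Reactivated (adjusted p = 0.39). Most of its Reactivated mean lay in Reactivated 2.

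Fosb, a partner of Jun in AP-1, went the other way. It was at 149, 116 and 134 in Late and at 60.6, 64.2 and 68.4 in Reactivated, with no overlap (-1.05 ± 0.23, adjusted p = 0.0047). Sik1, a salt-inducible kinase that restrains cAMP-driven transcription, fell by 1.07 (adjusted p = 0.015), and is named although the naming rule did not select it. Its call ended without Late 1, Late 2 or Reactivated 3 (adjusted p = 0.0608 to 0.0715), and Fosb then was the only fall in the list. Without Reactivated 1, 7 genes of the list rose. With the Rn45s share as a covariate 2 rose, and the calls of Egr1, Egr3, Egr4, Fosb and Sik1 ended.

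**Figure D1:**
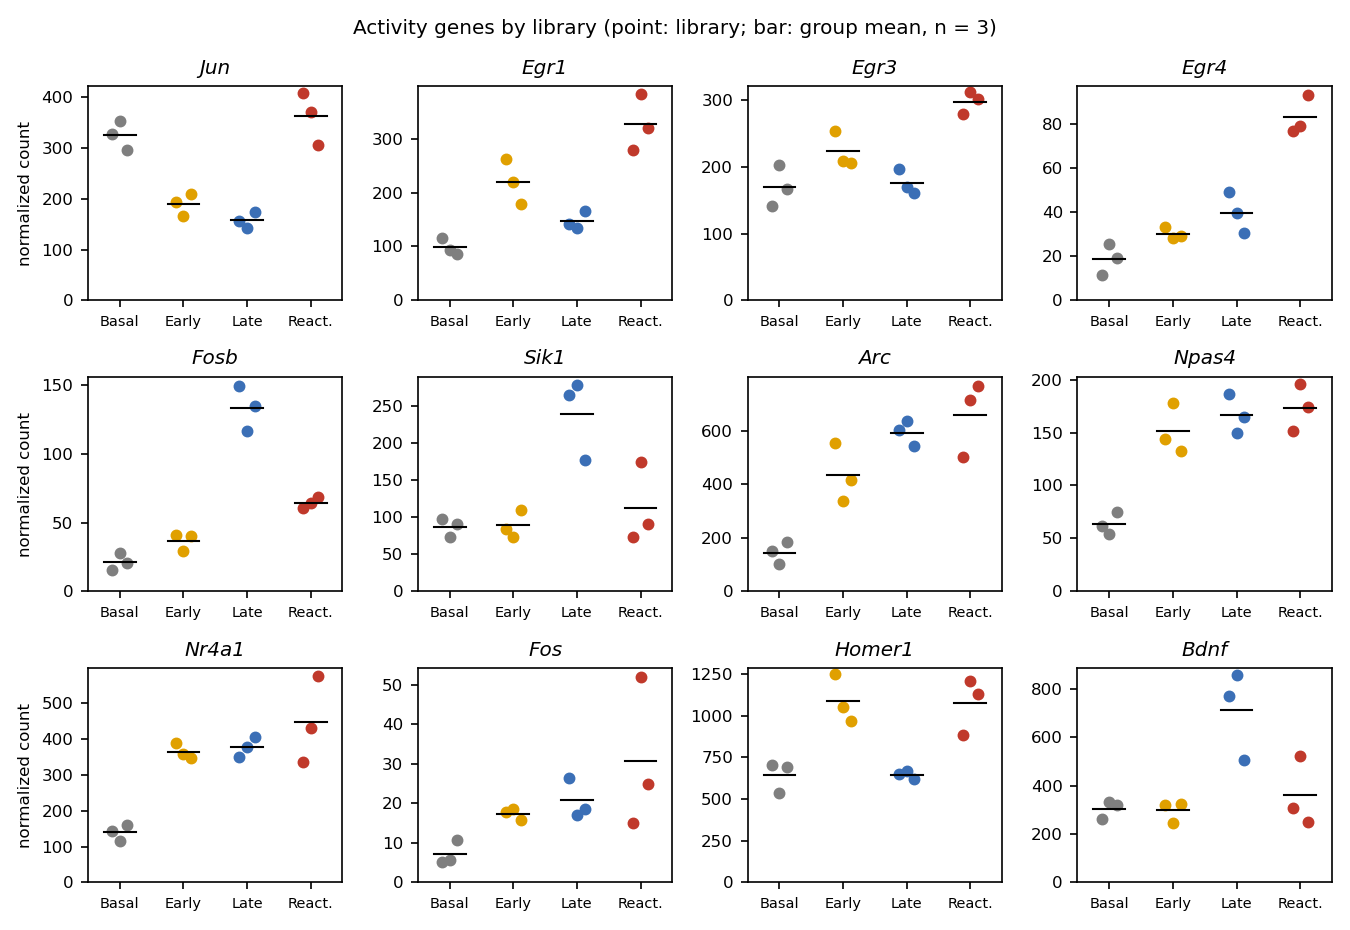
Normalized counts of 12 activity genes in each library of the 4 titles on linear axes, 1 point per library with bars at the group means (n = 3). Jun and Egr1 are higher in all 3 Reactivated than in all 3 Late libraries, Fosb is lower in all 3, and Arc overlaps between the 2 titles.

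Later genes of the activity program gave 10 rises (26.3%) and 3 falls (7.89%) among 38 tested (median 0.22), beside 10.3% and 12.3% of all genes. Nptx2, a secreted pentraxin that gathers AMPA receptors, was at 115, 97.8 and 98.0 in Late and at 241, 278 and 178 in Reactivated (1.16 ± 0.22, adjusted p = 0.0017). Homer1, a postsynaptic scaffold, was at 653, 667 and 620 and at 887, 1210 and 1128 (0.73 ± 0.16, adjusted p = 0.0037). Rheb, a small GTPase that activates mTORC1, rose by 1.13, from 52.8, 60.8 and 81.2 to 161, 135 and 135. All 3 genes were without overlap between titles. Bdnf, the neurotrophin most tied to synaptic plasticity, fell. It was at 771, 855 and 504 in Late and at 307, 523 and 248 in Reactivated, which overlap in 1 pair of libraries (-0.98 ± 0.25, adjusted p = 0.012). Its call ended without Late 2 (adjusted p = 0.0651) or Reactivated 3 (adjusted p = 0.0506). Tpbg, a leucine-rich repeat membrane protein, fell by 1.89, from 198, 168 and 134 to 37.2, 36.1 and 60.4. The third fall was Nefm, a neurofilament subunit outside the naming rule (-0.98), whose call ended without Late 1, Late 2, Reactivated 1 or Reactivated 3. The number of rises was 3 without Late 1, Late 2 or Reactivated 2 and 6 without Reactivated 3. With the Rn45s share as a covariate 1 gene rose, and Nptx2, Homer1, Bdnf and Nefm did not pass. The number of falls was 1 without Late 2 or Reactivated 3 and 5 without Reactivated 2.

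Single genes changed far more than the activity list. Lrrc17, a secreted leucine-rich repeat protein, was nearly absent from Late, with raw counts of 1, 5 and 1, and had 962, 946 and 828 in Reactivated. Its normalized counts were 1324, 832 and 735 in Reactivated, against 335, 244 and 273 in Early and 140, 135 and 140 in Basal. The fitted log2 fold change of 8.44 ± 0.40 (adjusted p = 3.4e-08) rests on those few Late reads and was 9.68 without Late 2. Bc1, a short noncoding RNA of dendrites that represses translation, was at 198, 235 and 154 in Late and at 6049, 6057 and 4034 in Reactivated (4.78 ± 0.24, adjusted p = 3.5e-08). Basal at 510, 538 and 713 and Early at 1302, 1042 and 1467 lay between them. Gsta3, a glutathione transferase, was at 56.4, 41.0 and 49.5 and at 1514, 1427 and 1214 (4.81 ± 0.36), and Trpv4, a cation channel, rose by 4.60 from under 3 to between 46.6 and 66.6. Psg28, of the pregnancy-specific glycoprotein family, was at 1905 to 2277 in every Basal and Early library, at 112, 155 and 116 in Late and at 688, 1084 and 1210 in Reactivated (2.97 ± 0.20). Its level in Reactivated was thus between Late and the other titles.

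Some of the largest rises rested on 1 library. Ppm1h, a protein phosphatase, was at 1028, 993 and 783 in Late and at 4656, 21935 and 4112 in Reactivated, and its log2 fold change of 3.45 became 2.23 without Reactivated 2. The histone gene Hist1h2af was at 165, 170 and 105 in Late and at 611, 3971 and 678 in Reactivated, with 3.59 becoming 2.15. Both still passed (adjusted p = 0.00042 and 0.0013). The other genes among the 15 largest rises by the naming rule were Plxnb3, Tuba1b, F5, Slc4a5, Mog, Gpr17, Pdgfra and Ntf5. F5 and Ntf5 moved from 3.24 to 3.94 and from 2.77 to 3.55 without Late 3.

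**Figure D2:**
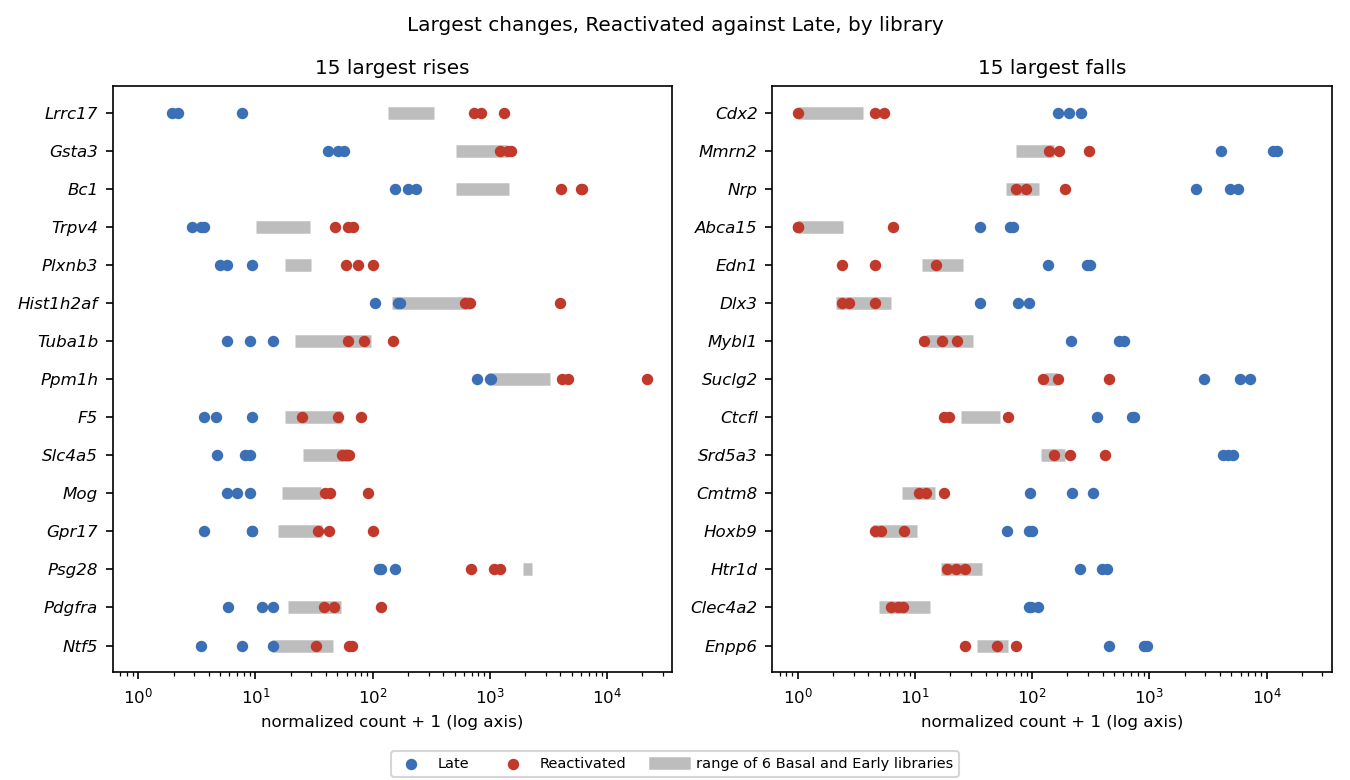
Normalized counts plus 1 (log scale) of the 15 largest rises and 15 largest falls by the naming rule, 1 point per library of Late and Reactivated, with grey bars for the range of the 6 Basal and Early libraries. For every one of the 15 falls the 3 Late libraries lie to the right of the grey bar, and for Psg28 the Reactivated libraries lie between Late and the grey bar. Of the falls, Cdx2, Abca15, Dlx3, Hoxb9 and Clec4a2 met the count filter only through Late.

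The largest falls were genes that only Late held at a high level. Among them Cdx2, Abca15, Dlx3, Hoxb9 and Clec4a2 met the count filter only through the Late libraries. These were tested only because Late was high, so they lend this pattern no support. Cdx2, an intestinal homeobox factor, had raw counts of 217, 156 and 178 in Late and 0, 5 and 4 in Reactivated (-6.10 ± 0.47, adjusted p = 6.5e-07), with at most 2.59 normalized counts in any Basal or Early library. Mmrn2, a protein of the vessel wall, was at 12216, 11379 and 4109 in Late, at 169, 305 and 139 in Reactivated and at 71.8 to 153 in Basal and Early (-5.49 ± 0.44). Nrp was at 5650, 4897 and 2481 in Late and at 190, 87.1 and 71.0 in Reactivated (-5.26 ± 0.37). In the RefSeq annotation its span overlaps Alkbh1 (-0.24 ± 0.21, adjusted p = 0.448) and Slirp (-0.74 ± 0.69, adjusted p = 0.478). The strand of counting is not given in the sources used here, so reads of overlapping genes cannot be told apart. Suclg2, a subunit of the mitochondrial succinyl-CoA ligase, was at 7257, 5948 and 2948 in Late and at 454, 165 and 123 in Reactivated (-4.47 ± 0.43). Srd5a3, a polyprenol reductase needed for protein glycosylation, was at 5165, 4227 and 4675 and at 420, 152 and 209 (-4.19 ± 0.29). In Basal and Early, Suclg2 lay at 128 to 162 and Srd5a3 at 118 to 190, so for both the Late libraries stood alone.

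Genes of signalling were among these falls. Edn1, the endothelin precursor, was at 307, 292 and 135 in Late and at 1.38, 3.52 and 14.2 in Reactivated. Its log2 fold change of -5.13 became -6.45 without Reactivated 3. Htr1d, a serotonin receptor, was at 393, 435 and 253 and at 17.9, 25.5 and 21.3 (-4.03 ± 0.25, adjusted p = 1.9e-07). Ctcfl, a germline relative of the insulator protein CTCF, was at 710, 732 and 354 and at 60.6, 16.7 and 18.6 (-4.32). Abca15, Dlx3, Mybl1, Cmtm8, Hoxb9, Clec4a2 and Enpp6 complete the 15. Without Reactivated 1, the falls of Suclg2, Ctcfl and Abca15 grew to -5.22, -5.07 and -8.85, the last from raw counts of 0 in both remaining libraries. Abca15 was -4.52 without Reactivated 2 and -4.51 without Reactivated 3.

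Many genes of energy supply rose. Of 70 tested genes of the respiratory chain and ATP synthase, 38 rose, 1 fell and 31 did not pass, with a median log2 fold change of 0.88 beside 0.0263 for all genes. With the Rn45s share as a covariate 14 rose. Atp5e, the epsilon subunit of ATP synthase, was at 12.0, 11.9 and 10.3 in Late and at 55.1, 72.2 and 43.5 in Reactivated (2.32 ± 0.36, adjusted p = 0.00033). Ndufa4, of cytochrome oxidase, was at 26.4, 14.5 and 22.4 and at 89.5, 80.1 and 70.2 (1.90 ± 0.28). Cox8a, another subunit of that enzyme, was at 75.7, 74.0 and 94.3 and at 242, 249 and 186 (1.47 ± 0.23). Ndufa3 rose by 1.36 and Uqcr10 by 1.86. No Reactivated library overlapped Late for these 5. Summed over the list, normalized counts came to 7711 ± 279 per Late library and 11250 ± 493 per Reactivated library (SD over 3). The number of rises was 22 without Late 1, 23 without Late 2 and 24 without Reactivated 2.

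Genes of protein synthesis and folding also included rises, in unequal shares. Of 72 cytosolic ribosomal proteins 37 rose and 0 fell (median 0.65), with 24 rises without Late 1, 23 without Late 2 and 18 with the counts left unscaled. Rplp1, of the ribosomal stalk, was at 151, 143 and 169 in Late and at 540, 358 and 326 in Reactivated (1.39 ± 0.22, adjusted p = 0.00040). Rpl21 was at 467, 489 and 511 and at 1212, 1062 and 918 (1.12 ± 0.16). Many ribosomal protein genes have near-identical pseudogenes, so their counts are uncertain. Of 41 translation factors 9 rose and 0 fell (median 0.16, 4 rises without Late 1, 5 without Late 2 and 1 with the counts left unscaled), among them Eef1a1 (0.87), Eif4g2 (0.82) and Eif1 (1.18). Of 35 heat shock proteins and chaperones 12 rose and 0 fell (median 0.48, 7 rises without Late 1 or without Late 2, 4 with the counts left unscaled and 2 with the Rn45s covariate). Hspa8, a constitutive chaperone that also uncoats vesicles, was at 1529, 1489 and 1891 and at 3450, 3473 and 3410 (1.07 ± 0.20). Hspa1b, the inducible form, rose by 2.59 from a low level of 2.64 to 6.00. The regulator Hsf2 rose by 2.60, but by 1.36 without Reactivated 2. Where edgeR called 0 falls, unadjusted p-values under 0.05 gave 0 for ribosomal proteins, 2 for translation factors and 0 for chaperones. DESeq2 called 0 in each of the 3 lists, and limma-voom 0, 2 and 1.

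Proteasome subunits gave 6 rises (16.7%) and 2 falls (5.56%) of 36, beside 10.3% and 12.3% of all genes. The rises numbered 3 without Late 1 and 2 without Late 2, and the falls 1 without Late 1, Late 2 or Reactivated 1. Psmb1, of the catalytic core, rose by 1.11, and Psmc2, an ATPase of the cap, fell by 1.42. The other fall was of Psmd1 (-0.67), outside the naming rule. Short genes rose more often than long genes. Among genes that are neither small RNAs nor unnamed models, 16% of those spanning under 5 kb rose and 7.91% fell, against 8.52% and 13.8% of those over 100 kb. The part of gene length in the tallies of these lists was not tested.

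**Figure D3:**
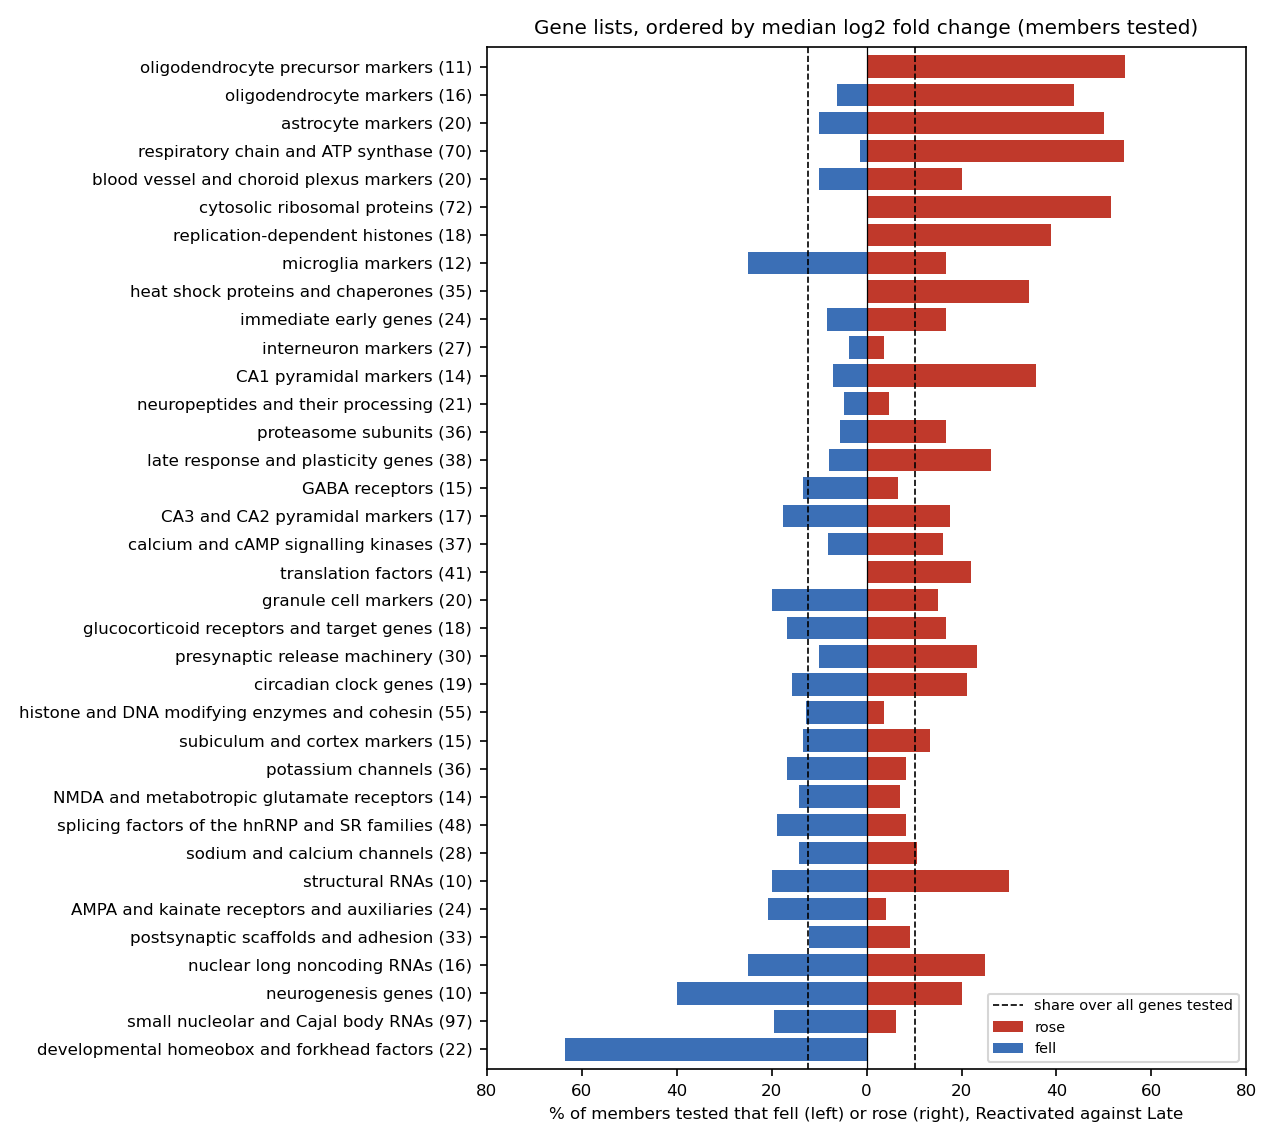
Share of the tested members of each gene list that rose (right) and fell (left) in Reactivated against Late, in percent, with dashed lines at the shares of all genes, 10.3% and 12.3%. The respiratory chain, ribosomal proteins, chaperones and the astrocyte, oligodendrocyte and precursor lists lie far to the right, and homeobox and forkhead factors far to the left. Microglial markers had more falls (25%) than rises (16.7%).

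Synaptic genes moved in both directions, and the falls of receptor genes were few when libraries were set to the same total. Of 24 AMPA and kainate receptor genes 1 rose (4.17%) and 5 fell (20.8%), with a median of -0.12, beside 10.3% and 12.3% of all genes. Cnih3, an AMPA receptor auxiliary, was at 209, 246 and 261 in Late and at 402, 531 and 458 in Reactivated (0.96 ± 0.15, adjusted p = 0.00039). The kainate receptor subunits Grik3 and Grik4 fell by 1.06 and 1.13. Grik4 was at 1875, 1860 and 1605 and at 796, 880 and 768, whereas it had risen from Basal to Early (1.08, adjusted p = 0.0023). Gria1, Gria2 and Cacng8, the main AMPA receptor subunits and an auxiliary, fell by 0.42, 0.42 and 0.47. These 3 calls ended without Late 2, Late 3 or Reactivated 3, and some also without others of the libraries. The falls numbered 3 without Late 1 or Late 3 and 2 without Late 2 or Reactivated 3, and without Reactivated 2 a second gene rose beside Cnih3. With libraries set to the same total the list had 2 rises and 2 falls. Gria2 and Grin2d are among the least stable calls named.

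Of 14 NMDA and metabotropic glutamate receptors 1 rose (7.14%) and 2 fell (14.3%), near the 10.3% and 12.3% of all genes. The rise was of Grin2c (2.45), an NMDA receptor subunit, and rested largely on Reactivated 1, with 326 there, 66.0 and 55.1 in the other two, and 1.18 without it. Grin2d fell by 0.68, a call that ended without Early 1, Early 2, Late 1, Late 2, Reactivated 2 or Reactivated 3. Among 15 GABA receptor genes 1 rose (6.67%) and 2 fell (13.3%), and the subunits Gabra3 and Gabrb1 fell by 1.28 and 0.60. Gabra3 was at 556, 509 and 440 and at 262, 183 and 178. Without Basal 3 or Reactivated 1 the list had 2 rises.

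Genes of vesicle release and calcium sensing included clear rises. Of 30 presynaptic genes 7 rose (23.3%) and 3 fell (10%), with a median of 0.02, beside 10.3% and 12.3% of all genes. Snap25, a SNARE protein of vesicle fusion, was at 2616, 2505 and 2704 in Late and at 4518, 5543 and 5052 in Reactivated (0.95 ± 0.13, adjusted p = 0.00014). Its partner Vamp2 rose by 0.80, Rab3a, a vesicle GTPase, by 1.09 and the fusion ATPase Nsf by 0.68. The falls, all outside the naming rule, were of Rims1 (-1.17), Cplx2 (-1.04) and Syn3 (-0.75), and Syn3 did not pass without Late 1, Late 2 or Reactivated 3. Calm2 and Calm3, which encode the calcium sensor calmodulin, rose by 0.78 and 0.70. The calcineurin subunit Ppp3r1 rose by 1.11.

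Ephb2, a receptor tyrosine kinase of excitatory synapses, had the largest change among 33 scaffold and adhesion genes. It was at 4078, 3457 and 2682 in Late, at 1099, 668 and 746 in Reactivated and at 483 to 570 in Basal and Early (-2.03 ± 0.19, adjusted p = 4.3e-06). Nrxn3 (a neurexin) and Nlgn1 (a neuroligin) fell by 0.61 and 0.49. The list had 4 falls (12.1%) and 3 rises (9.09%), near the 12.3% and 10.3% of all genes. Without Late 1 or Late 2 Nrxn3 did not pass and 2 falls were left. The rises were of Lrrtm1 (0.61) and, outside the naming rule, Lrrtm2 (0.75) and Nrxn2 (0.54). They numbered 1 without Late 1, Late 2 or Reactivated 2, 7 without Basal 3 and 6 without Early 3. With libraries set to the same total the list had 12 rises and 1 fall. Of 36 potassium channel genes 3 rose (8.33%) and 6 fell (16.7%). Without Late 1 there were 3 falls, and with equal totals 9 rose and 2 fell. Kcnk2, a background channel with tandem pore domains, was at 1591, 1428 and 767 and at 479, 352 and 230 (-1.84 ± 0.29). The rises were of Kcnj4 (0.96) and, outside the naming rule, Kcna1 (0.49) and Kcnip3 (0.39). Without Late 1 or Late 2 none of the 3 passed, and without Basal 1, Late 3, Reactivated 2 or Reactivated 3 a single one did.

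RNA-binding and chromatin genes moved in both directions. Of 48 hnRNP and SR splicing factors 4 rose and 9 fell (18.8%, beside 12.3% of all genes, median -0.10), with 5 falls without Late 1 and 4 without Late 2. Hnrnpd, which binds AU-rich messages, was at 2980, 2955 and 1740 in Late and at 1004, 880 and 861 in Reactivated (-1.48 ± 0.19, adjusted p = 4.9e-05). Hnrnpu and Luc7l3 fell by 1.21 and 1.07. Hnrnpab rose by 1.08, from 402, 394 and 312 to 964, 712 and 663. The other 3 rises, outside the naming rule, were of Hnrnpa3 (0.99), Hnrnph2 (0.95) and Srsf6 (0.40). The rises numbered 2 without Late 1 or Reactivated 3, 1 without Late 2 and 7 without Reactivated 1. With libraries set to the same total 14 rose and 3 fell. Among 55 chromatin genes 2 rose and 7 fell (12.7%, near the 12.3% of all genes), and with equal totals 16 rose and 2 fell. The list had a median of -0.03, with 4 falls without Late 1, Late 2 or Reactivated 3. Arid1b, a subunit of the BAF remodelling complex, was at 6969, 6779 and 4257 and at 2621, 1712 and 1670 (-1.59 ± 0.22). Hdac9, a class IIa histone deacetylase, fell by 1.41, from 2708, 2433 and 2398 to 1097, 837 and 905. Kmt2e and Mbd5, outside the naming rule, rose by 0.42 each, and neither passed without Late 1, Late 2 or Reactivated 2. One of them passed without Basal 1, Late 3 or Reactivated 3.

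Replication-dependent histone genes, whose messages normally lack a poly(A) tail, gave 7 rises and 0 falls of 18 tested among 68 listed (median 0.65, with 0 falls also at an unadjusted p under 0.05, in DESeq2 and in limma-voom). Hist1h1e, a linker histone, was at 97.3, 116 and 90.6 in Late and at 304, 181 and 204 in Reactivated (1.18 ± 0.24, adjusted p = 0.0029). Hist1h2bc and Hist1h4h, at under 8 in Late, rose by 3.52 and 2.76. Of the 18, 2 met the count filter only through Reactivated, 1 of them a rise. Hist1h2bc was at 2.90 without Reactivated 1 and Hist1h4h at 4.19 without Late 3. Of 16 long noncoding RNAs 4 rose and 4 fell. Neat1, the RNA that builds paraspeckles, was at 60.0, 34.3 and 42.0 in Late and at 299, 153 and 200 in Reactivated (2.24 ± 0.26, adjusted p = 2.5e-05). Peg13 rose by 0.98 and Kcnq1ot1 by 0.60. Xist, which coats the inactive X chromosome, was at 97.3, 62.1 and 99.0 and at 720, 114 and 118, so its rise of 1.85 lay in Reactivated 1. Without that library it was 0.42 (adjusted p = 0.191), and its call also ended without Late 1, Late 2 or Late 3. The falls were of Snhg1 (-1.56) and Miat (-0.54) and, outside the naming rule, Malat1 (-0.47) and Meg3 (-0.52). Without any 1 of Late 1, Late 2, Late 3, Reactivated 1 or Reactivated 3 there were 2 falls.

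Small nuclear and nucleolar RNAs changed strongly. Of 97 small nucleolar and Cajal body RNAs, which guide the modification of ribosomal and spliceosomal RNA, 6 rose (6.19%) and 19 fell (19.6%). The median was -0.56, and 10.3% and 12.3% of all genes rose and fell. Of the falls, 5 met the count filter only through Late. The labels name both a total RNA kit with ribosomal depletion and SmartSeq2, and how far non-polyadenylated RNA such as these, Rn45s and histone messages was captured depends on which was used. Snora47 was at 699, 678 and 1105 in Late, at 20.7, 0.880 and 6.22 in Reactivated and at 0 to 2.51 in Basal and Early (-6.68 ± 0.49, adjusted p = 4.7e-07). It was -7.82 without Reactivated 1 and -6.07 without Reactivated 2. Snord33 was at 2809, 2548 and 4687 and at 193, 45.8 and 81.7 (-5.02, and -5.71 without Reactivated 1). Snord58b moved the other way, from 2.40, 1.32 and 3.74 to 96.4, 89.8 and 112 (5.18 ± 0.54), and was at 44.9 to 134 in Basal and Early. The falls of the list numbered 37 without Reactivated 1, 11 without Late 3 and 12 without Reactivated 2. Rnu11, of the minor spliceosome, was at 478, 446 and 595 in Late and at 8457, 1828 and 3955 in Reactivated (3.23 ± 0.43, and 2.51 without Reactivated 1). Of the 10 tested members of the structural RNA list, which holds Rnu11, 3 rose (30%) and 2 fell (20%), beside 10.3% and 12.3% of all genes. Without Late 1 there were 1 rise and 1 fall. Lars2, also in that list but not a small RNA, was at 40102, 74510 and 95738 and at 467250, 321820 and 360900 (2.45 ± 0.63). It did not pass without Late 1 (2.17, adjusted p = 0.0622). Its share of a library's counts was 0.604% ± 0.307 at Late and 4.08% ± 0.536 at Reactivated (SD over 3 libraries, exact permutation p = 0.1). Small RNAs lie in introns of other genes or as single units, and what their reads at this library preparation come from was not tested.

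MicroRNA loci changed in both directions. Of 161 microRNA symbols tested 44 rose (27.3%) and 21 fell (13%), beside 10.3% and 12.3% of all genes. The reads are of the loci as counted by symbol and are not levels of mature microRNA. The 3 shown were chosen after their values were seen, because they are neuronal microRNAs that changed in opposite directions. Their mature forms (RefSeq, GRCm38.p6) are given 5′ to 3′ with the seed, bases 2 to 8, in capitals.
mmu-miR-9-5p: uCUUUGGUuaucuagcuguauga
mmu-miR-138-5p: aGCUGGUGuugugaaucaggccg
mmu-miR-137-3p: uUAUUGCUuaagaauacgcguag
They lie on the plus strand at chr13:83738821-83738843, chr9:122682898-122682920 and chr3:118433901-118433923, and no seed is shared between them. Mir9-2, a locus of miR-9, which acts in neural progenitors, was at 21.6, 17.2 and 29.9 in Late and at 139, 141 and 126 in Reactivated (2.53 ± 0.44). Mir138-1, a locus of miR-138, which is enriched in brain and restrains dendritic spine size, was at 37.2, 14.5 and 29.9 and at 235, 175 and 201 (2.88 ± 0.41). Mir137, the locus of miR-137, which acts in neuronal maturation, was at 101, 106 and 81.2 and at 5.51, 6.16 and 8.88 (-3.76 ± 0.48). None of the 3 overlapped between titles. Mir137 met the count filter only through the Late libraries, so its fall is no support for a direction of these loci. How many of the other microRNA symbols met the filter through a single title was not counted.

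Many markers of astrocytes, oligodendrocytes and oligodendrocyte precursors were higher in Reactivated although nuclei were sorted for NeuN. Of 20 astrocyte markers 10 rose and 2 fell (median 1.10), of 16 oligodendrocyte markers 7 rose and 1 fell (median 1.12), and of 11 precursor markers 6 rose and 0 fell (median 1.49, or 1.40 with Neu4 at its bound). The 0 for precursor markers also held at an unadjusted p under 0.05, in DESeq2 and in limma-voom, and 1 of the 6 rises met the count filter only through Reactivated. Fewer nuclei of a type and less RNA per nucleus cannot be told apart in such bulk samples. Mog, a myelin protein, was at 6.00, 7.93 and 4.67 in Late and at 90.9, 42.2 and 38.2 in Reactivated (3.18 ± 0.47, adjusted p = 0.00019). Pdgfra, the receptor that marks precursors, was at 4.8, 13.2 and 10.3 and at 117, 45.8 and 37.3 (2.78 ± 0.51, and 2.13 without Reactivated 1). Gpr17 and Olig2 rose by 3.08 and 2.63, and by 2.46 and 1.54 without Reactivated 1, where Olig2 did not pass (adjusted p = 0.0599). Olig2 also did not pass without Late 1 (adjusted p = 0.0559). Neu4 had 0 in all 3 Late libraries and was at least 2.64-fold higher in Reactivated, against a floor of 3 counts per library. Gfap, the astrocyte filament, was at 93.7, 77.9 and 77.5 and at 359, 174 and 229 (1.60 ± 0.34). Reactivated 1 was the highest of the 3 for each of these genes.

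Against Basal the glial genes were less clear. Mog, at 20.8 to 35.0 in Basal, lay below every Reactivated library, while Pdgfra, at 30.9 to 53.1, overlapped them. The summed astrocyte markers were 5716.8 to 8038.9 in Late and 5868.2 to 12927 in Reactivated (exact permutation p = 0.7). The oligodendrocyte sums were 5409.5 to 10551 and 4156.2 to 9429.1 (exact permutation p = 0.4). The precursor sums were 1029.2 to 1098.2 and 1319.7 to 1789.7 (exact permutation p = 0.1). Astrocyte rises numbered 4 without Late 1, 5 without Late 2 or Reactivated 1 and 6 without Late 3. Oligodendrocyte rises numbered 4 without Late 1 or Late 2, and precursor rises 4 without Reactivated 1.

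Other glial genes were highest in Late, and of these Sox9 and Cx3cr1 were still above Basal and Early in every Reactivated library. Sox9, an astrocyte transcription factor, was at 2623, 2181 and 1148 in Late, at 640, 451 and 284 in Reactivated and at 122 to 209 in Basal and Early (-2.12 ± 0.30). Cx3cr1 and Itgam, receptors of microglia, fell by 2.62 and 2.72. Cx3cr1 was at 5181, 3962 and 2381 in Late, at 944, 565 and 377 in Reactivated and at 284 to 364 in Basal and Early. These 2 genes made up 47.1% and 46.8% of the microglial sum in Late, and of 12 microglial markers 3 fell and 2 rose. The third fall was of Siglech (-0.71) and the rises were of P2ry12 (1.73) and Inpp5d (2.12). All 3 of those calls ended without Late 1 or Late 2, and P2ry12 was 0.80 and Inpp5d 1.46 without Reactivated 1. Microglial rises numbered 1 without Basal 1, Late 1 or Reactivated 3 and 0 without Late 2, Late 3 or Reactivated 1. Among 20 vessel and choroid plexus markers 4 rose and 2 fell. Ttr, the transthyretin of choroid plexus, was at 226, 202 and 224 in Late and at 1470, 949 and 1819 in Reactivated, with 427 to 2217 in Basal and Early (2.70 ± 0.46). The other calls were rises of Slco1a4, Folr1 and Clic6 and falls of Kl (-1.24) and Prlr. The rises numbered 1 without Late 1, Late 2 or Reactivated 3, and Kl was the single fall without Late 1, Late 2, Late 3, Reactivated 2 or Reactivated 3. The part of glial and vascular RNA in the other results was not tested.

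**Figure D4:**
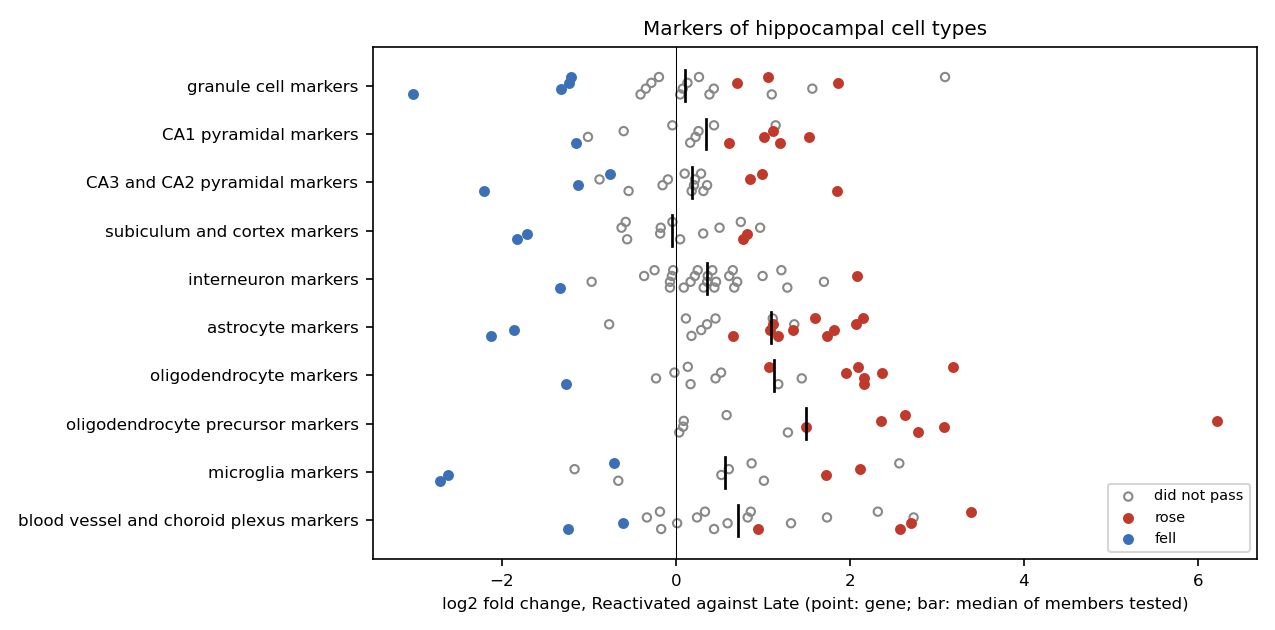
Log2 fold change of each tested marker gene in Reactivated against Late, grouped by cell type list, with points filled red (rose) or blue (fell) where the test was passed and bars at the list medians. Precursor markers all lie above 0, microglial markers lie on both sides, and the fitted value of Neu4 at 6.22 comes with 0 counts in Late.

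Neuronal subfield markers moved in both directions, beside the 10.3% of all genes that rose and the 12.3% that fell. Of 20 granule cell markers 3 rose and 4 fell (median 0.11). Maml2, a Notch coactivator, was at 1891, 1690 and 841 in Late and at 235, 143 and 171 in Reactivated (-3.02 ± 0.32, adjusted p = 1.0e-05), and Stxbp6 fell by 1.32, Plekha2 by 1.22 and Rfx3 by 1.20. The rises were of Glis3 (1.87) and, outside the naming rule, Prox1 (1.05) and Calb1 (0.71). None of the 3 passed without Late 1 or Late 2, 1 did without Late 3, and without Reactivated 1 Glis3 was 0.65 and Prox1 0.33. Without Reactivated 3 the list had 5 rises. Of 14 CA1 markers 5 rose and 1 fell. Nov, a matricellular protein, was at 358, 342 and 338 and at 746, 866 and 765 (1.20 ± 0.17). The other rises were of Fibcd1 (1.01), Ndst4 (1.11), Galntl6 (1.53, and 0.51 without Reactivated 2) and, outside the naming rule, Mpped1 (0.61). CA1 rises numbered 2 without Late 1, Late 2 or Reactivated 2 and 3 without Late 3 or Reactivated 3, and the falls 2 without Basal 2, Basal 3 or Reactivated 3. The sums of the granule list (6892.4 to 10126 in Late, 4558.5 to 8114.3 in Reactivated) and of the CA1 list (6014.6 to 6854.8 and 6374.2 to 10035) overlapped.

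In CA3 and CA2, 3 of 17 markers rose and 3 fell. Nnat, an imprinted proteolipid, was at 298, 343 and 386 in Late and at 1088, 1615 and 1001 in Reactivated (1.85 ± 0.21), and Pcp4, a calmodulin regulator that marks CA2, rose by 0.99. Csf2rb2 fell by 2.2 on the log2 scale, from 3810, 3314 and 2806 to 772, 769 and 620, with 394 to 524 in Basal and Early. The other calls were of Grik4 and of Map3k15 (0.86) and, outside the naming rule, Hs3st4 (-0.76). Map3k15 and Hs3st4 did not pass without Late 1, Late 2 or Reactivated 3. Of 27 interneuron markers 1 rose and 1 fell. Pvalb, the calcium buffer of fast-spiking cells, was at 16.8, 17.2 and 10.3 and at 52.3, 62.5 and 71.0 (2.09 ± 0.35, adjusted p = 0.00064). The fall of Calb2 (-1.33) did not pass when any of 10 of the 12 libraries was left out. Without Early 2, Early 3, Reactivated 2 or Reactivated 3 the list had 2 rises, and 3 without Reactivated 1.

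Developmental transcription factors that could be tested fell or did not pass. Of 65 listed homeobox, forkhead and related factors 43 had counts too low to be tested, and of the 22 tested 0 rose and 14 fell. The filter bears on this count, because 7 of the 22, with 4 of the 14 falls, met it only through the Late libraries, so the count is no support for a direction of the list. At an unadjusted p under 0.05, 1 was higher in edgeR, and DESeq2 and limma-voom called 0 rises. For 13 of the 14 all 3 Late libraries lay outside the Basal and Early range, and the 3 Reactivated libraries did not all do so. Hoxd9, a trunk patterning gene, was at 722, 738 and 375 in Late, at 53.7, 95.0 and 42.6 in Reactivated and at 43.1 to 67.3 in Basal and Early (-3.24 ± 0.31, adjusted p = 4.4e-06). Foxa3, an endodermal factor, was at 508, 441 and 273 and at 110, 66.9 and 39.1 (-2.53 ± 0.35). Hoxb9 fell by 4.04 and Dlx3 by 4.79, and Gata3, Gata4 and Nkx2-1, chosen after their values were seen, by 2.72, 2.83 and 2.66. Summed over the list, Late was at 3463 ± 887 and Reactivated at 932 ± 380 (SD over 3). Eomes, which marks intermediate progenitors, followed the same course, at 448, 355 and 317 in Late and at 116, 31.7 and 28.4 in Reactivated (-2.74, and -3.63 without Reactivated 1).

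Clock and hormone-responsive genes moved in both directions. Of 19 clock genes 4 rose (21.1%) and 3 fell (15.8%), beside 10.3% and 12.3% of all genes. Dbp, a clock output factor, was at 107, 119 and 106 in Late and at 474, 302 and 319 in Reactivated (1.72 ± 0.27, adjusted p = 0.00032), while Per3, a repressor, was at 1608, 1621 and 1034 and at 698, 488 and 520 (-1.32 ± 0.22). Nr1d1 rose by 0.73 and Cry2 fell by 0.63. Bhlhe41 was at 2818, 14405 and 2687 in Reactivated, so that its 2.25 became 0.98 without Reactivated 2, where its adjusted p lay at the threshold of 0.05. The remaining calls, outside the naming rule, were of Bhlhe40 (0.76) and Rora (-0.62), and Rora did not pass without Late 1, Late 3, Reactivated 2 or Reactivated 3. Zeitgeber time at collection is not given in the sources used here. Among 18 glucocorticoid receptor and target genes 3 rose and 3 fell (16.7% each). Pdk4, a brake on pyruvate oxidation, was at 1803, 1476 and 1030 and at 207, 172 and 95.0, with 41.5 to 77.3 in Basal and Early (-3.19 ± 0.28). Tsc22d3, a widely used marker of glucocorticoid action, was at 414, 373 and 354 and at 157, 176 and 148 (-1.24 ± 0.16). Sult1a1 fell by 1.92. The metallothioneins Mt1 and Mt2, which bind zinc, rose by 2.66 and 2.41, with Mt2 at 1.76 without Reactivated 1. Nr3c1, the receptor itself and outside the naming rule, rose by 0.71, and did not pass when any of 8 of the 12 libraries was left out.

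The recall step was set beside the change from Basal to Early, the first hours after conditioning, which shares no library with it. There 944 genes were called (6.03% of those tested, 527 higher and 417 lower). Both steps called 229 genes, 6.47% of the recall calls and 24.3% of the others. Of these, 93 rose in both, 41 fell in both, 37 rose at recall and fell early, and 58 fell at recall and rose early. Across genes, which are not independent, the 2 log2 fold changes had r = -0.0258. The difference between the steps itself passed for 2507 genes (16% of those tested).

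Genes that rose in both steps included Egr1, Homer1, Nptx2, Snap25 and Rab3a. Egr1 changed by 1.16 from Basal to Early and by 1.15 at recall (adjusted p of the difference = 0.98), and Homer1 by 0.76 and 0.73 (0.96). These p-values do not show that the steps were equal. Arc and Nr4a1 rose from Basal to Early by 1.57 and 1.37 and by more than at recall (adjusted p of the difference = 0.0074 and 0.0084). Jun fell from Basal to Early by 0.78, and its recall change was higher (adjusted p of the difference = 5.4e-05). Kcnq5, a potassium channel of the M-current, went from 205, 172 and 211 (Basal) to 773, 641 and 737 (Early) and from 1058, 1133 and 902 (Late) to 475, 474 and 488 (Reactivated). It thus rose by 1.87 early and fell by 1.10 at recall (adjusted p of the difference = 2.0e-06). Sipa1l2, a Rap GTPase regulator, did the opposite, from 1100, 1354 and 1147 to 307, 348 and 411, and from 204, 221 and 220 to 403, 333 and 366 (-1.76 and 0.77). Epha5, an ephrin receptor, and Med18, a Mediator subunit, changed by -1.99 and -2.41 at recall. Their changes of 0.46 and 0.10 from Basal to Early did not pass (adjusted p of the difference = 7.4e-06 and 8.4e-06). For both, Late was the highest title. Raw counts of Epha5 were 7360 to 9217 in Late, 1475 to 3587 in Basal and Early and 1605 to 2826 in Reactivated. Those of Med18 were 495 to 586, 136 to 229 and 88 to 132. Tigit, whose RefSeq span overlaps Zbtb20 (-0.35, adjusted p = 0.184), fell by 3.05 at recall, from 9529, 8181 and 7075 to 1290, 893 and 821. It changed by 0.02 from Basal to Early, with raw counts of 607 to 1249 in those titles and 6193 to 7935 in Late.

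**Figure D5:**
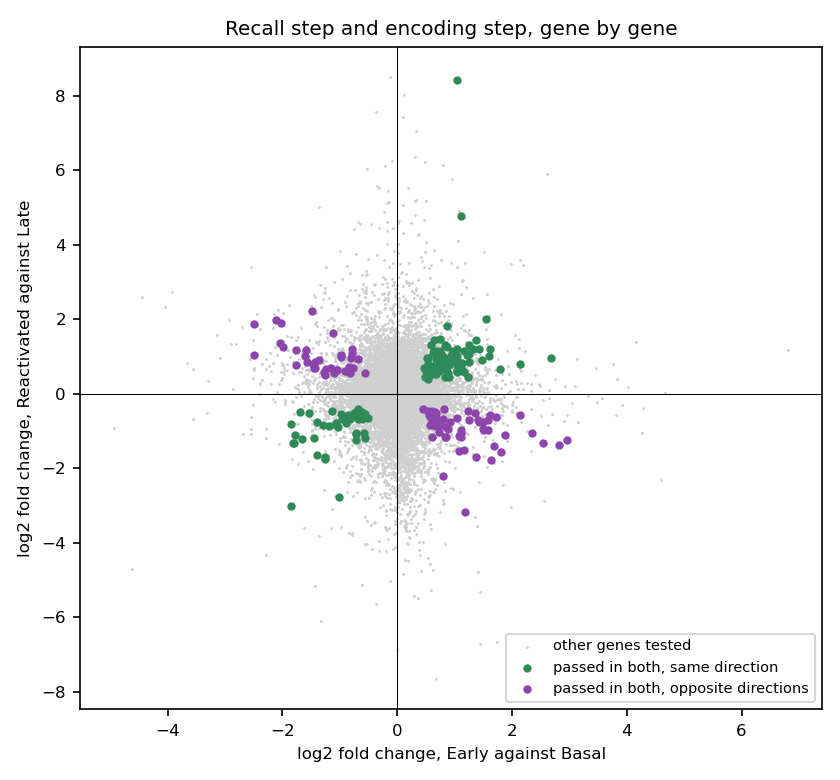
Log2 fold change from Basal to Early (x axis) against that from Late to Reactivated (y axis) for all genes tested, with the 229 genes that passed in both steps in green (same direction) or purple (opposite directions). Lrrc17 (1.03 and 8.44) and Bc1 (1.11 and 4.78) are the 2 green points highest above the rest.

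Reactivated libraries differed in ways the title does not give. Of the genes that fell, Reactivated 1 was the highest of the 3 for 1006 (52.2%), Reactivated 2 for 499 and Reactivated 3 for 421, so that Reactivated 1 lay nearest to Late more often than either of the others. Among called genes, 1 library was at least 3 times the next highest of its title for 33 genes in Reactivated 1, 32 in Reactivated 2, 1 in Reactivated 3 and 0 in Late. Those of Reactivated 1 included Xist, Gja1, a gap junction protein of astrocytes, and Grin2c. Gja1 rose by 1.81, and by 0.57 without that library (adjusted p = 0.27). Those of Reactivated 2 included Ppm1h, Bhlhe41, Hsf2, Hist1h2af and Galntl6.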

How the data were processed

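Nuclear RNA of sorted mouse hippocampal nuclei was measured in 12 libraries, 3 for each of 4 titles. The authors deposited 1 table of counts per gene symbol and library. Its name calls the values normalized, but they were whole numbers whose totals differed between libraries, and they were treated as raw counts. Per the submitters' processing notes, Bowtie2 2.0, Cufflinks 2.2, DESeq2 and the build mm9 were used. No source used here gives the counting tool, the annotation or the strand setting. Per the labels' protocols, ribosomal cDNA was depleted and libraries had 15 PCR cycles, although SmartSeq2 is also named, and the choice bears on the levels of non-polyadenylated RNA. Symbols turned into dates filled 27 rows, with at most 0.147% of a library's counts. Every column of the table was mapped to a sample (0 left over).

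Genes with counts of 10 or more in 3 or more libraries were fitted with edgeR 4.0.16 (quasi-likelihood, TMM scaling, R 4.3.3), with 4 group means over all 12 libraries. The contrasts were Reactivated minus Late, Early minus Basal, and their difference. Two-sided p-values were adjusted over 15668 genes (Benjamini-Hochberg), with a threshold of 0.05. The fit was tested on simulated data. DESeq2 1.42.0 and limma 3.58.1 (voom) served as alternatives, with other scalings, filters, a Rn45s covariate, a replicate block and each library left out in turn. Normalized counts are relative to the geometric mean of effective library sizes. A floor is 3 counts per library and covers counting error only. The SE of log2 fold changes come from the fit and include the spread between libraries.

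The comparison and gene lists were chosen with earlier results of these data known. Genes named are the 15 largest changes in each direction among called genes whose higher title averaged 50 or more and whose titles did not overlap, leaving out unnamed models, small RNA symbols and dates. To these were added Arc, Fos, Npas4, Egr1, Nr4a1 and Bdnf, the 5 members of each list with the smallest p, and the 10 genes with the smallest p for the difference of steps. Promoter windows matched 73.0% of the genes tested, under the share required, so the check of promoter motifs is void and none is reported. Some list members that passed are not reported here. MicroRNA sequences matched 144 of 161 symbols.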

Additional observations from a re-analysis of the deposited data

How the results depend on the processing

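With 3 pools per title, 1 library can decide a call, and the counts depended most on scaling, on the Rn45s share and on Late 1 and Late 2. Against 1615 genes higher and 1926 lower in Reactivated than in Late, libraries set to the same total gave 3881 and 1091, and that scaling without structural RNAs gave 2823 higher. Counts left unscaled gave 877 and 869, and the Rn45s share as a covariate gave 763 and 1096. Leaving out 1 library at a time gave 815 to 1753 higher and 1342 to 2110 lower. The cause was not tested. RLE scaling, DESeq2, upper quartile scaling, both filters, the fit of 6 libraries alone and limma-voom stayed within 1.5 times of both counts. For the difference between the recall and first steps, called for 2507 genes, unscaled counts gave 1096, limma-voom 4293 and the covariate 1669, with 1777 to 2963 over single libraries. Genes called in both steps, 229, became 352 with DESeq2, 46 unscaled, 776 with limma-voom and 146 with the covariate, and 105 to 318 over single libraries. Of 215 genes named by rule 196 passed, and 99 of these passed in the same direction under all 24 alternatives. The one reversal was Rpph1, at 0.36 with the covariate.

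The reported fit did not pair libraries by replicate number. Deviations of same-numbered Late and Reactivated libraries had r of 0.0565, 0.064 and 0.153, and those of all same-numbered pairs ran from -0.205 to 0.461. In Basal and in Early the Rn45s share was highest in replicate 3 (12.2% and 12.9%). These values do not settle whether libraries of the same number were paired. A fit with a replicate block gave other counts by under 1.5 times: 1521 genes were higher and 1946 lower, the difference between steps was called for 2531 genes, and 232 were called in both.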

Other observations

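Of 21 neuropeptide genes 1 rose and 1 fell, against 10.3% and 12.3% of all genes. Cpe, a peptide-processing enzyme, was at 1640, 1614 and 1843 in Late and at 3107, 4268 and 3227 in Reactivated (1.06 ± 0.18, adjusted p = 0.00055). Chga, a granin of secretory granules, fell by 0.55, and did not pass without Late 1, Late 2 or Reactivated 1. Among 28 sodium and calcium channel genes 3 rose (10.7%) and 4 fell (14.3%), near the shares of all genes. Scn3b, a sodium channel beta subunit, was at 1588, 1419 and 1375 and at 706, 743 and 560 (-1.12 ± 0.21, adjusted p = 0.0014). Without Late 1 the list had 0 rises and 2 falls, and without Late 2 it had 1 rise and 2 falls.

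Of the Y-linked genes named here none passed in edgeR, with 0 of 4 at an unadjusted p under 0.05. Uty was at 108, 91.1 and 139 in Late and at 136, 173 and 141 in Reactivated, and Kdm5d at 313, 304 and 346 and at 271, 331 and 336. Ddx3y was at 274, 317 and 242 and at 259, 209 and 276, and Eif2s3y at 169, 156 and 204 and at 147, 280 and 269. The values of the titles overlapped for all 4. DESeq2 called 0 of them and limma-voom 1, Eif2s3y (0.55), which also passed with libraries set to the same total (0.76) and without Reactivated 1 (0.63). Unnamed gene models and the other symbols left out of naming, 1641 of the genes tested, gave 153 rises (9.32%) and 287 falls (17.5%). The shares of all genes were 10.3% and 12.3%.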
